A study of Mus musculus with 13 samples.

Results

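Ion cotransporters, sodium pumps and aquaporins were followed in the cerebral meninges, the membranes that cover the brain, of newborn mice. The members are all genes whose symbol places them in the Slc4, Slc9 or Slc12 family (for Slc9 and Slc12 only the symbols that end in 1 digit), among the Atp1a and Atp1b subunits of the sodium pump, or among the aquaporins (Aqp). There were 40 such genes with a probe set that carries 1 gene symbol, out of 19938 genes tested. They comprise 8 Slc12, 9 Slc4, 7 Slc9, 5 Atp1 and 11 Aqp genes.

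The pups were C57BL6 mice at postnatal day 0 from 1 litter, with 1 array per mouse. The 4 mutants carried Pdgfc-/- together with Pdgfra GFP/+, that is, no functional PDGF-C ligand and 1 copy of its receptor gene replaced by a GFP reporter. The 9 controls were their littermates and pooled 5 genotypes: Pdgfc+/+, Pdgfc+/- and Pdgfc-/- with both copies of Pdgfra, and Pdgfc+/+ or Pdgfc+/- with the Pdgfra GFP/+ allele. Which control had which genotype is not in the labels, so single controls cannot be sorted by the alleles they share with the mutants. The tissue was dissected freely and not sorted, so in these bulk samples fewer cells of a type and less RNA per cell cannot be told apart. Values are intensities on a linear scale from Affymetrix Mouse Gene 1.0 ST arrays, and differences are mutants minus controls on the log2(intensity + 16) scale from limma with Benjamini-Hochberg adjustment over all tested genes. An adjusted p under 0.05 was the rule for calling a gene as risen or fallen. Intensities of different genes were not compared, since probe sets differ in brightness.

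The intensity of Pdgfc lay between 22.8 and 29.3 in the mutants, at 5.88 in control 2 and between 103 and 275 in the other 8 controls (exact permutation test, two-sided, p = 0.00839), and Pdgfra had means of 1078 ± 352 (SD, n = 4) and 1764 ± 429 (SD, n = 9) (exact permutation test, p = 0.0126). The values of control 2 and of the mutants all lie well under their array medians, where their order does not rank expression, and the controls include a genotype without Pdgfc. Medians of the mutant arrays ran from 56.0 to 89.7 and those of the control arrays from 44.1 to 89.0. The Y-linked Eif2s3y was high, and Xist low, in the 4 mutants and in controls 1, 5 and 8. Controls 2, 3, 4, 6, 7 and 9 had the reverse, and no mutant did, so sex is partly confounded with group. The 15 meningeal fibroblast markers were all bright, each with a mean of at least 1028 over the 13 mice, as the label of the tissue requires. Their summed intensity lay between 28210 and 43130 in mutants and between 36710 and 48490 in controls. Of the 15, 2 rose (Col1a1 and Col3a1) and 5 fell, where 8.58% and 6.31% of all tested genes did. Those that fell were Slc22a6, Ptgds, Crabp2, Slc6a13 and Islr, with differences from -1.96 to -0.59. All mutants lay below all controls in these 5 (3.04% of all tested genes) and above in Col1a1 (6.4%).

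These genes form a linked system for moving salt, acid and water. The sodium pump, built from a catalytic alpha and a glycosylated beta subunit, spends ATP to keep sodium low and potassium high inside the cell, and the other carriers draw on that gradient. Slc12 proteins move chloride together with sodium or potassium, Slc4 proteins move bicarbonate, Slc9 proteins exchange sodium for protons, and aquaporins let water follow. At the surfaces of the brain and in the choroid plexus these families are known for setting the ionic make-up of cerebrospinal fluid, and in neurons for setting the chloride level on which inhibition depends.

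More members fell than rose, except that 7 fell and 7 rose with arrays centred on reference genes and 7 fell and 14 rose on fibroblast genes. Of the 40 members, 3 rose (7.5%), namely Slc12a5, Slc4a8 and Atp1b1, while 8.58% of all tested genes rose. A larger share, 9 members (22.5%), fell, against 6.31% of all tested genes: Slc9a2, Slc9a9, Slc4a4, Slc4a10, Slc4a2, Slc12a7, Atp1b2, Atp1b3 and Atp1a4. The share that rose lay near that of all genes. The share that fell was above it, and no test of that share was made. How far above depended on the scaling. With quantile normalization 25% of the members and 18.1% of all genes fell, and with arrays centred on their medians 25% and 14.4%. Centring on reference genes gave 17.5% and 2.87%, and on fibroblast genes 17.5% and 1.84%. The other 28 members did not pass the test. The median difference of the 40 members was -0.06 (range -1.17 to 0.76), beside 0.00 over all tested genes.

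In 7 members the groups did not overlap. All 4 mutants lay above all 9 controls in 1 member, Atp1b1 (6.4% of all tested genes did so). All mutants lay below all controls in 6, Slc9a2, Slc9a9, Slc12a7, Slc4a10, Atp1b2 and Atp1b3 (3.04% of all tested genes). Of the 19 members brighter than the median gene, 1 rose and 8 fell, and of the 21 dimmer ones 2 rose and 1 fell. In the fit without the dimmest 50% of genes, 5.26% of the members rose and 42.1% fell, beside 13.6% and 14.4% of all genes in it. For the dimmer genes no such share was computed. No direction of the 12 called members turned under any alternative that was run. With unequal variances in the groups, 3 of the 9 falls (Slc9a2, Slc9a9 and Atp1b2) and none of the 3 rises passed the test, while Slc9a7 passed as a rise. With the Xist level as a covariate none of the 3 rises passed, and 7 falls did.

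**Figure D1:**
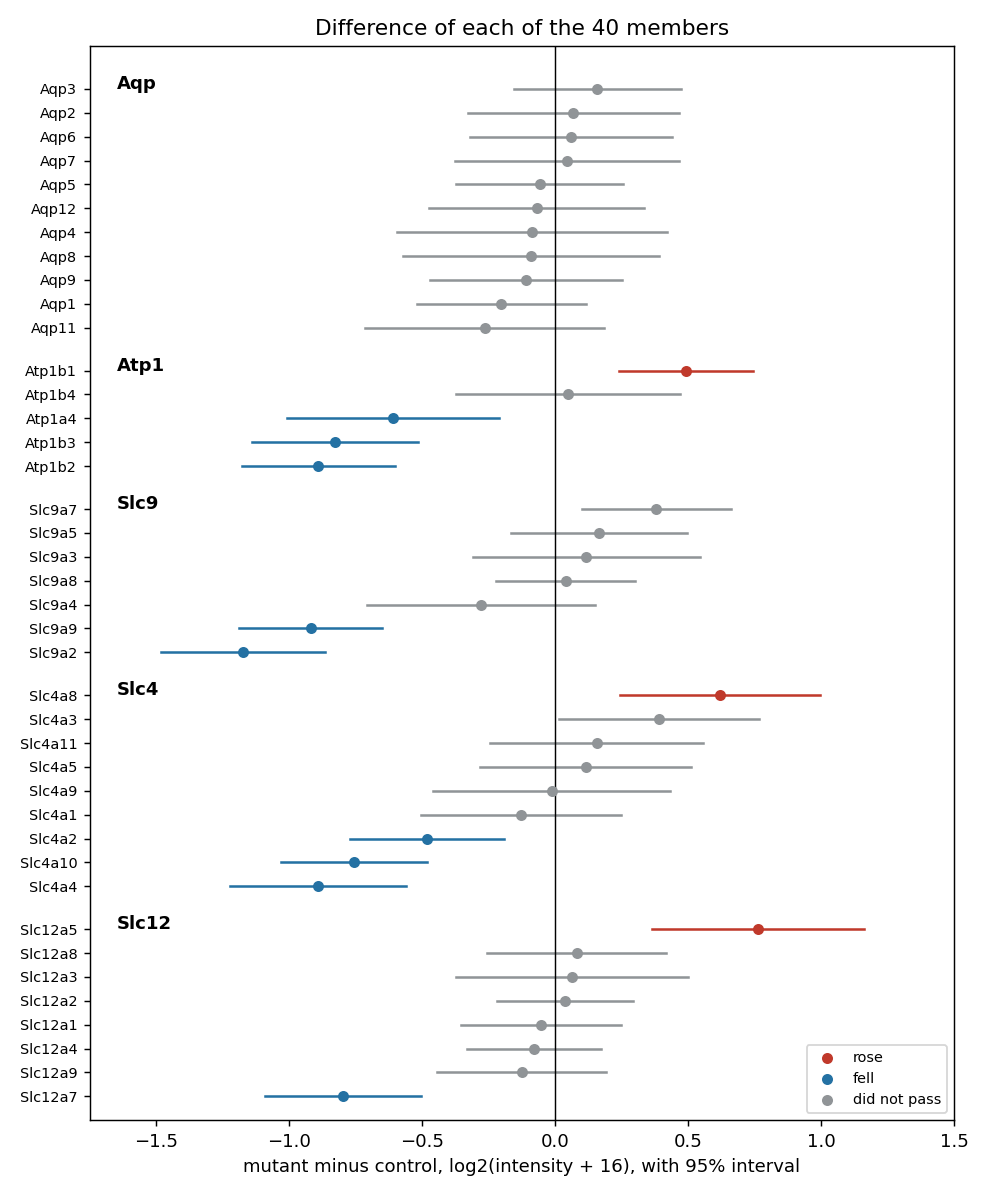
Difference of each of the 40 members, mutants minus controls on the log2(intensity + 16) scale (horizontal axis), with its 95% interval, grouped by family and coloured by whether the gene rose, fell or did not pass the test. The 9 falls reach -1.17 in Slc9a2, the 3 rises reach 0.76 in Slc12a5, and the 11 aquaporins lie between -0.27 and 0.16.

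The sodium pump had the largest share of calls, with 1 rise and 3 falls among the 5 measured Atp1 genes, and its beta subunits went in opposite directions. Beta subunits escort the alpha subunit to the plasma membrane and adjust its affinity for potassium. Atp1b1, the beta subunit found in most tissues, had intensities of 841, 1008, 743 and 886 in mutants 1 to 4, and in the controls a lowest value of 541, a median of 611 and a highest value of 691. Every mutant was above every control. The means were 870 ± 110 (SD, n = 4) and 612 ± 54.7 (SD, n = 9), a difference of 0.49 (standard error 0.12, adjusted p = 0.0068, 1.41-fold higher). The fit with Xist as a covariate gave 0.42 (adjusted p = 0.141), and the mice with the Y-linked pattern alone gave 0.43 (adjusted p = 0.229).

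Atp1b2, known as the beta subunit of astrocytes and as an adhesion molecule on glia, was at 268, 225, 255 and 343 in mutants 1 to 4, and at 406 (lowest), 506 (median) and 623 (highest) in the controls. No mutant reached the lowest control. The means were 273 ± 50.2 (SD, n = 4) and 518 ± 68.9 (SD, n = 9), a difference of -0.89 (standard error 0.14, adjusted p = 8.03e-05, 1.86-fold lower). Atp1b3, a further beta subunit of broad expression, was at 1662, 2574, 1663 and 2400 in the mutants and at 2735 (lowest), 3673 (median) and 4344 (highest) in the controls. The groups were again separate, with means of 2075 ± 481 (SD, n = 4) and 3649 ± 461 (SD, n = 9) and a difference of -0.83 (standard error 0.15, adjusted p = 4.3e-04). A second probe set of Atp1b3 gave means of 1122 ± 285 (SD, n = 4) and 1992 ± 217 (SD, n = 9) and a difference of -0.85 (adjusted p = 3.24e-04 over 21789 probe sets), a comparison added after the data were seen.

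The opposite movement of both beta genes was put as a ratio within each mouse, which removes any brightness that the array gives to both. The log2 ratio of Atp1b1 to Atp1b2 was 1.60, 2.09, 1.49 and 1.33 in mutants 1 to 4, and in the controls it ran from -0.15 to 0.57. The ranges lay apart, as they had to, since each gene alone already split the groups, in opposite directions. The test below could therefore give only its smallest p, so it adds no support beyond the values of each gene. The mean ratio was 1.38 higher in the mutants, or 2.61-fold (exact permutation test over 715 splits, two-sided, p = 0.0014, the smallest it can give, adjusted p = 0.0042 over 3 pairs). Among the 4 mutants and the 3 controls with the same Y-linked pattern the difference was 1.22, where 35 splits cannot give a p below 0.0286 and the adjusted p was 0.0857.

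Atp1a4, an alpha subunit best known from sperm, gave 343, 326, 268 and 505 in mutants 1 to 4, and 295 (lowest), 556 (median) and 706 (highest) in the controls. Control 1 held the value of 295 and was the only control below the highest mutant. The difference was -0.61 (standard error 0.19, adjusted p = 0.0346), and the call rested on the whole set of mice. It was lost without mutant 1, 2 or 3 (adjusted p = 0.0859, 0.103 and 0.154), and also without control 2, 4, 5, 8 or 9 (0.0593, 0.0537, 0.0509, 0.0527 and 0.0538). A fit that took the Xist level as a covariate gave -0.30 (adjusted p = 0.673), and centring on reference genes gave -0.33 (adjusted p = 0.217). Whether its probes also read related genes was not tested. Atp1b4, whose product in placental mammals is a nuclear protein of muscle rather than a pump subunit, was dim and did not pass the test, with means of 25.5 ± 12.6 (SD, n = 4) and 23.8 ± 9.02 (SD, n = 9).

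**Figure D2:**
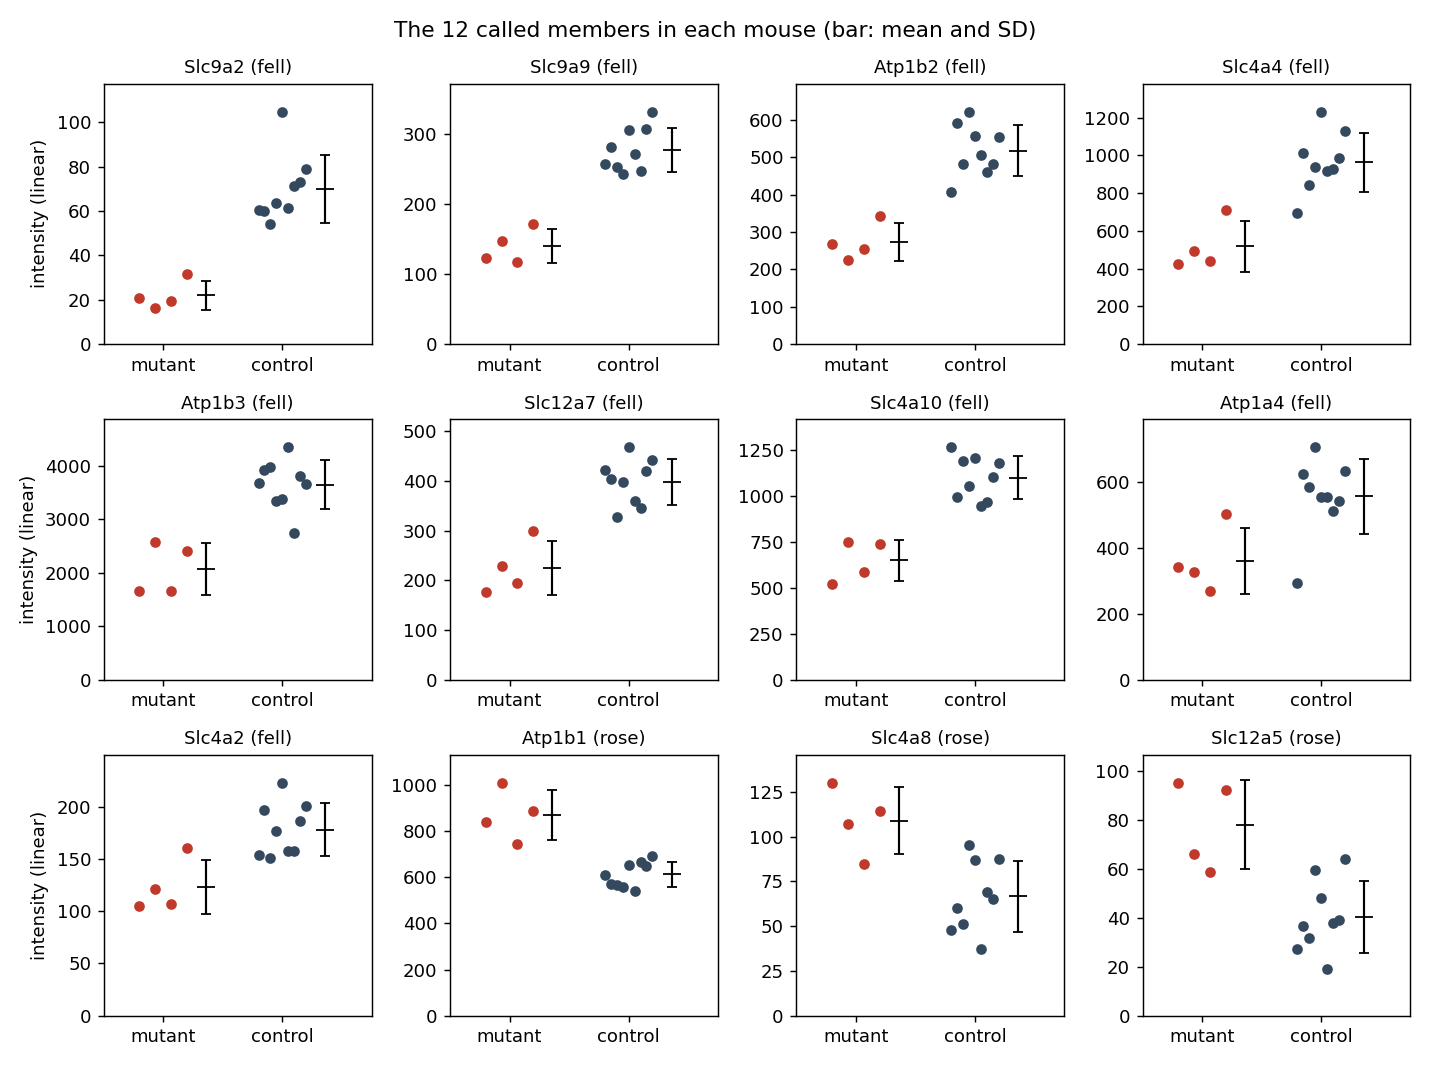
Intensity on a linear scale (vertical axes, each from 0) of the 12 called members in each of the 4 mutants and 9 controls, with the mean and SD beside the points. In Atp1b1 all mutants (743 to 1008) lie above all controls (541 to 691), and in Slc9a2 all mutants (16.1 to 31.5) lie below all controls (54.0 to 105).

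Among the Slc12 cotransporters, 1 of 8 rose, 1 fell and 6 did not pass the test. Slc12a5 encodes KCC2, the potassium-chloride cotransporter of neurons that keeps their chloride low. Its intensities were 95.1, 66.2, 58.9 and 92.4 in mutants 1 to 4, and 19.3 (lowest), 37.9 (median) and 63.9 (highest) in the controls. Controls 4 and 9, at 59.7 and 63.9, lay above the lowest mutant. The means were 78.1 ± 18.3 (SD, n = 4) and 40.4 ± 14.6 (SD, n = 9), a difference of 0.76 (standard error 0.19, adjusted p = 0.00826, 1.70-fold higher). The fit with Xist as a covariate gave 0.81 (adjusted p = 0.059).

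Slc12a7 encodes KCC4, another potassium-chloride cotransporter, which is found in epithelia and other cells outside neurons. It was at 177, 229, 195 and 300 in mutants 1 to 4, and at 327 (lowest), 403 (median) and 468 (highest) in the controls. Every mutant was below every control, with means of 225 ± 54.1 (SD, n = 4) and 399 ± 46.3 (SD, n = 9) and a difference of -0.80 (standard error 0.14, adjusted p = 3.48e-04, 1.74-fold lower).

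Slc12a2 encodes NKCC1, which loads cells with chloride, and it is the usual counterpart of KCC2 in immature neurons. It was bright in all mice, at 794, 1002, 751 and 1072 in mutants 1 to 4 and at 757 (lowest), 867 (median) and 973 (highest) in the controls. Its difference was 0.04 (95% interval -0.22 to 0.29, adjusted p = 0.978), but it was called as a rise when arrays were centred on reference genes (0.32, with an adjusted p of 0.0066) or on fibroblast genes (0.51, 5.51e-05). Of the 12 reference genes 4 fell and none rose in the fit without centring, and at an unadjusted p under 0.05 with limma 5 were lower and 0 higher. The log2 ratio of Slc12a5 to Slc12a2 ran from -3.63 to -2.87 among mutants and from -4.67 to -3.47 among controls, with some overlap. Its mean was 0.72 higher in the mutants (exact permutation test, two-sided, p = 0.00979, adjusted p = 0.0147 over 3 pairs). Without mutant 1 the difference was 0.58 (adjusted p = 0.0546), and without the 4 dimmest arrays it was 0.54 (adjusted p = 0.0595).

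The remaining Slc12 genes moved little. Slc12a4, or KCC1, the potassium-chloride cotransporter that regulates volume in many cells, had means of 352 ± 36.9 (SD, n = 4) and 373 ± 38.4 (SD, n = 9) and a difference of -0.08 (adjusted p = 0.886), which became a called rise of 0.39 with arrays centred on fibroblast genes. Slc12a9 had means of 173 ± 29.7 (SD, n = 4) and 191 ± 33.7 (SD, n = 9), a difference of -0.13 (adjusted p = 0.818). The kidney cotransporters Slc12a1 and Slc12a3 and the more distant Slc12a8 were dim, with group means between 19.1 and 46.2 and differences of -0.05, 0.06 and 0.08.

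**Figure D3:**
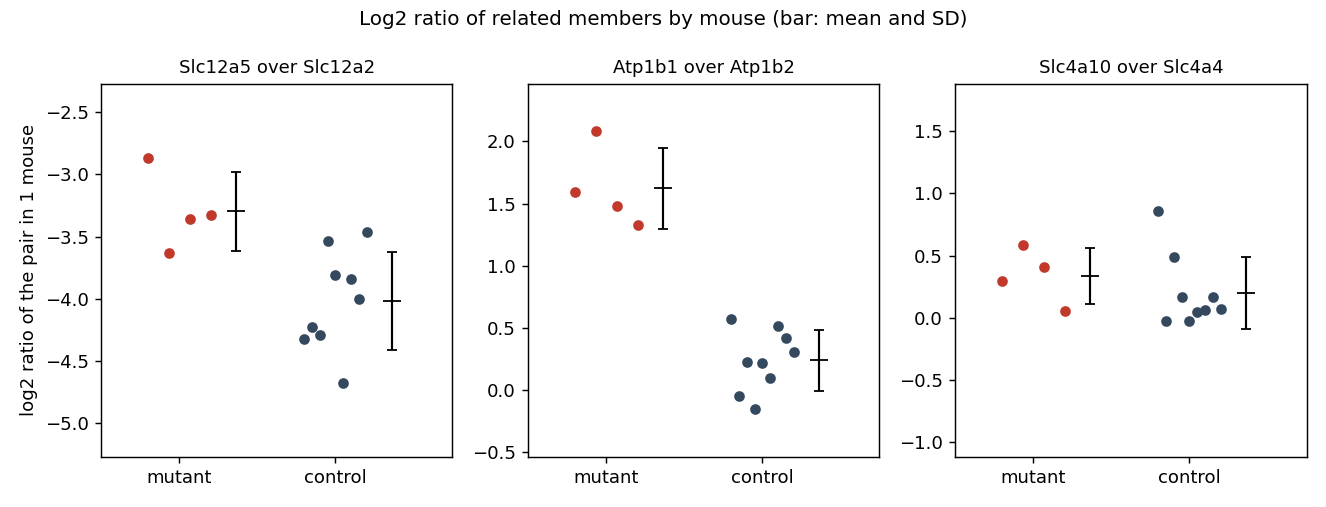
Log2 ratio of related members within each mouse (vertical axes, each spanning 3 log2 units), in the 4 mutants and 9 controls, with the mean and SD beside the points. The ratio of Atp1b1 to Atp1b2 is 1.33 or higher in all mutants and 0.57 or lower in all controls, while the ratio of Slc4a10 to Slc4a4 overlaps between the groups.

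Of the 9 Slc4 bicarbonate carriers, 3 fell, 1 rose and 5 did not pass the test. Slc4a4, or NBCe1, the electrogenic sodium bicarbonate cotransporter of astrocytes and epithelia, was at 422, 494, 440 and 713 in mutants 1 to 4, and at 692 (lowest), 940 (median) and 1232 (highest) in the controls. Mutant 4 lay above control 1, and all other mutants lay below all controls. The means were 517 ± 134 (SD, n = 4) and 964 ± 156 (SD, n = 9), a difference of -0.89 (standard error 0.16, adjusted p = 3.66e-04, 1.86-fold lower).

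Slc4a10, a sodium-coupled bicarbonate carrier of neurons and of the choroid plexus, was at 521, 751, 589 and 740 in the mutants and at 947 (lowest), 1105 (median) and 1267 (highest) in the controls. No mutant reached a control. The means were 651 ± 114 (SD, n = 4) and 1103 ± 116 (SD, n = 9), a difference of -0.76 (standard error 0.13, adjusted p = 2.98e-04, 1.69-fold lower). The log2 ratio of Slc4a10 to Slc4a4 differed by 0.14 between the groups (exact permutation test, two-sided, p = 0.446), with mutants between 0.05 and 0.59 and controls between -0.03 and 0.86, so unequal falls were not detected with these mice.

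Slc4a2, or AE2, which exchanges chloride for bicarbonate in many cells, was at 105, 122, 107 and 161 in mutants 1 to 4, and at 151 (lowest), 177 (median) and 223 (highest) in the controls. Mutant 4 lay above controls 1, 3, 6 and 7. The difference was -0.48 (standard error 0.14, adjusted p = 0.0204), and the call was lost without mutant 1, 2 or 3 (adjusted p = 0.0909, 0.0548 and 0.0743). With arrays centred on reference genes it was -0.20 (adjusted p = 0.244), and on fibroblast genes -0.01 (adjusted p = 0.897).

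Slc4a8, a sodium-driven chloride bicarbonate exchanger of neurons, went the other way. It was at 130, 107, 84.5 and 114 in mutants 1 to 4, and at 37.2 (lowest), 65.2 (median) and 95.3 (highest) in the controls. Controls 4, 5 and 9 lay above the lowest mutant. The means were 109 ± 18.8 (SD, n = 4) and 66.7 ± 19.9 (SD, n = 9), a difference of 0.62 (standard error 0.18, adjusted p = 0.0233, 1.54-fold higher). The call was lost without mutant 1, 2 or 4 (adjusted p = 0.0981, 0.0598 and 0.0665). Taking the Xist level as a covariate gave 0.61 (adjusted p = 0.158).

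Slc4a3, or AE3, the anion exchanger of excitable tissues, had means of 166 ± 41.5 (SD, n = 4) and 123 ± 28.5 (SD, n = 9), a difference of 0.39 that did not pass the adjustment (adjusted p = 0.189). A second, dimmer probe set of the gene gave 0.23 (adjusted p = 0.522). The brighter one was called as a rise with quantile normalization (0.32, adjusted p = 0.0416) and with arrays centred on reference or fibroblast genes. The other Slc4 genes, Slc4a1 (band 3 of red cells), Slc4a5 (a bicarbonate cotransporter of the choroid plexus), Slc4a9 and Slc4a11, had group means of 21.3 to 85.4 and differences from -0.13 to 0.16.

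The Slc9 sodium-proton exchangers had 2 falls, 0 rises and 5 members that did not pass the test, and the falls were the steepest of all members. Slc9a2, or NHE2, an exchanger of the plasma membrane, was at 20.8, 16.1, 19.4 and 31.5 in mutants 1 to 4, and at 54.0 (lowest), 63.4 (median) and 105 (highest) in the controls. The groups were well apart. The means were 21.9 ± 6.66 (SD, n = 4) and 69.8 ± 15.3 (SD, n = 9), a difference of -1.17 (standard error 0.15, adjusted p = 6.95e-06, 2.26-fold lower). Because the mutant intensities lie near the added 16, the log2 difference understates the ratio of the intensities.

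Slc9a9, or NHE9, which sets the acidity of endosomes, was at 123, 146, 117 and 171 in the mutants and at 242 (lowest), 271 (median) and 331 (highest) in the controls, again with no overlap. The means were 139 ± 24.6 (SD, n = 4) and 277 ± 31.3 (SD, n = 9), a difference of -0.92 (standard error 0.13, adjusted p = 2.45e-05, 1.89-fold lower). Slc9a2, Slc9a9 and Atp1b2 were the 3 members that passed the test under every alternative that was run on them. Slc9a2 was not among the genes left without the dimmest 50%.

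Slc9a7, an exchanger of the Golgi network encoded on the X chromosome, was at 114, 117, 93.3 and 110 in mutants 1 to 4 and at 60.9 (lowest), 84.4 (median) and 96.7 (highest) in the controls. Only control 2 lay above the lowest mutant, but the difference of 0.38 did not pass the adjustment (adjusted p = 0.0661). It did pass under 6 alternatives, among them arrays centred on their medians (0.28, adjusted p = 0.0407) and quantile normalization (0.29, adjusted p = 0.0153). Slc9a8, an exchanger of the Golgi, had means of 185 ± 22.2 (SD, n = 4) and 180 ± 22.0 (SD, n = 9) and a difference of 0.04 (adjusted p = 0.977), and was called as a rise of 0.32 (adjusted p = 0.0492) with arrays centred on reference genes and of 0.51 (adjusted p = 8.75e-04) on fibroblast genes. Slc9a3, known from kidney and gut, Slc9a4, known from the stomach, and Slc9a5 were dim, with group means of 24.4 to 45.4 and differences of 0.12, -0.28 and 0.17. Of these, Slc9a4 was called as a fall under 4 alternatives, among them quantile normalization (-0.31, adjusted p = 0.0234).

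None of the 11 aquaporins passed the test with limma, none had an unadjusted p under 0.05, and none was called by the methods' test or with unequal variances. Aqp1, the water channel of the choroid plexus and of some vessels, was at 454, 662, 464 and 590 in mutants 1 to 4 and at 488 (lowest), 624 (median) and 789 (highest) in the controls. The groups overlapped, with a difference of -0.20 (95% interval -0.52 to 0.12, adjusted p = 0.551). Aqp4, the channel of astrocyte endfeet at the brain surface and around vessels, was at 79.9, 88.7, 157 and 165 in mutants 1 to 4 and at 83.3 (lowest), 118 (median) and 234 (highest) in the controls. Here the spread within each group exceeded the difference of -0.09, whose 95% interval of -0.60 to 0.42 leaves room for a change of either sign.

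Aqp11, an aquaporin of the endoplasmic reticulum, had means of 139 ± 24.1 (SD, n = 4) and 177 ± 64.8 (SD, n = 9) and a difference of -0.27 (adjusted p = 0.606). Aqp5, the channel of glands, had means of 322 ± 68.0 (SD, n = 4) and 335 ± 51.2 (SD, n = 9) and a difference of -0.06 (adjusted p = 0.962). Aqp3, which also passes glycerol, had means of 205 ± 48.2 (SD, n = 4) and 181 ± 28.1 (SD, n = 9) and a difference of 0.16 (adjusted p = 0.702), called as a rise of 0.63 only with arrays centred on fibroblast genes. The other 6, Aqp2, Aqp6, Aqp7, Aqp8, Aqp9 and Aqp12, had group means of 19.3 to 76.4 and differences from -0.11 to 0.07.

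The stretches upstream of annotated transcription starts are shown for the 3 members that rose and, beside them, for Slc9a9, 1 of the members that fell in all settings. Each is the 250 bases before an annotated start in RefSeq (GRCm38.p6), written 5′ to 3′ on the strand of the gene. Those before the second start of Slc12a5 and before the start used for Slc9a9 lie inside the annotated span of the gene. For Slc9a9 this span begins at chr9:94669557, so its stretch is not upstream of the whole gene. Capitals mark 3 motifs, searched for on both strands. The first is the box CCAAT, which reads ATTGG when it lies on the other strand. The second is the palindrome CACGTG, known as an E-box. The third is the GC box GGGCGG, which reads CCGCCC when it lies on the other strand. The windows are chr1:164458356-164458605 on the minus strand for Atp1b1, chr2:164960596-164960845 and chr2:164967738-164967987 on the plus strand for the first and second start of Slc12a5, chr15:100761497-100761746 on the plus strand for Slc4a8, and chr9:94669642-94669891 on the plus strand for Slc9a9.
Atp1b1: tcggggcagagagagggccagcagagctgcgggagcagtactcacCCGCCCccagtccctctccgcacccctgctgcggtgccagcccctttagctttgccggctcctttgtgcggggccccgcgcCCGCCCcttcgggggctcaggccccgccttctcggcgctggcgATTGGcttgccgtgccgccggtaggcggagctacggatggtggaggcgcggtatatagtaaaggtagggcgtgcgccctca
Slc12a5, first start: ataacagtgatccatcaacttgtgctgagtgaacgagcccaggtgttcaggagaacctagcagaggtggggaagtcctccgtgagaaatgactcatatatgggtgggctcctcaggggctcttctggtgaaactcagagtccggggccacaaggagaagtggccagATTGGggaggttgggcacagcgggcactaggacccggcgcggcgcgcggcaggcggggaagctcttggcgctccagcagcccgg
Slc12a5, second start: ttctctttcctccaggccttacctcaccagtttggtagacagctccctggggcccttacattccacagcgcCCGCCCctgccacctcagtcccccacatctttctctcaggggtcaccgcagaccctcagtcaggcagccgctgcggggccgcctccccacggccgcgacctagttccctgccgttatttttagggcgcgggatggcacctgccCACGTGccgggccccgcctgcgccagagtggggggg
Slc4a8: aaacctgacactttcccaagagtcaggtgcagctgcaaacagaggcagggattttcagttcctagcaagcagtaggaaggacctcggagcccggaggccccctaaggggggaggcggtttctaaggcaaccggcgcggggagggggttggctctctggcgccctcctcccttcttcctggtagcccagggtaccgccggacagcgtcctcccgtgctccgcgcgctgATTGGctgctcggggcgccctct
Slc9a9: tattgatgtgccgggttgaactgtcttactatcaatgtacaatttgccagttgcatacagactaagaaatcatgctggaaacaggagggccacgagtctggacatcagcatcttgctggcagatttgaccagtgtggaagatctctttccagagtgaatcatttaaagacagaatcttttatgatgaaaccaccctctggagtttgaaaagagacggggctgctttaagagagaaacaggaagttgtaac

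CCAAT was present in 3 of the 4 windows of the risers, in 1 window of each of the 3 genes, and in 2 of the 12 windows of the 7 fallers with a listed window, while 33.85% of all 32851 windows of this length hold it. The E-box was in 1 window of the risers and 2 of the fallers (6.021% of all windows). The GC box was in 2 and 4 of them (32.74% of all windows). TATAAA, searched in the same way but not marked, was in 0 and 1 (12.37% of all windows), and the motifs shown do not overlap each other. The median GC content was 66.0% for the risers, 62.4% for the fallers, 60.2% for the uncalled members and 52.4% for all windows. The Slc9a9 window, inside the gene, was at 42.8% with none of the motifs. In the 26 windows of uncalled members CCAAT was in 6, the E-box in 6, the GC box in 13 and TATAAA in 3. Both windows of Slc12a7 hold a GC box, and they share most of their bases. These matches describe the letters of the windows, and with 4 and 12 windows no difference between the groups was tested. Windows were found for 32 of the 40 members.

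Among the subunits, kinases and enzymes that act on these carriers, calls went in both directions. Over all tested genes 8.58% rose and 6.31% fell, and all mutants lay above all controls in 6.4% and below in 3.04%. These shares stand beside every count below, and none of the lists was tested against them. Of 7 FXYD proteins, which modulate the sodium pump, 1 rose and 1 fell. Fxyd6 had means of 718 ± 134 (SD, n = 4) and 412 ± 81.9 (SD, n = 9), a difference of 0.79 (adjusted p = 0.00169), with all mutants above all controls. Fxyd1, or phospholemman, had means of 254 ± 56.7 (SD, n = 4) and 380 ± 46.6 (SD, n = 9), a difference of -0.57 (adjusted p = 0.00867) that lost its call without mutant 3 (adjusted p = 0.0521), centred on reference genes (-0.29, adjusted p = 0.188) or fibroblast genes (-0.10, adjusted p = 0.487) and with unequal variances (adjusted p = 0.193). Fxyd5 and Fxyd7 did not pass the test, with differences of -0.22 and 0.11.

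The WNK kinases and their targets SPAK and OSR1 sense chloride and phosphorylate Slc12 cotransporters, which activates NKCC1 and inhibits the KCCs. Of 13 genes of this pathway, 3 rose and 2 fell. Wnk3 had means of 204 ± 19.1 (SD, n = 4) and 79.1 ± 11.4 (SD, n = 9), a difference of 1.21 (adjusted p = 4.92e-07). Wnk2 rose by 0.80 (adjusted p = 0.00129), and Nedd4l, a ubiquitin ligase known for acting on sodium channels, by 0.92 (adjusted p = 1.23e-04). Sgk1, a kinase that restrains Nedd4l, had means of 332 ± 87.6 (SD, n = 4) and 618 ± 83.4 (SD, n = 9), a difference of -0.89 (adjusted p = 3.58e-04), and Cab39l, a scaffold that activates SPAK, fell too. In these 5 genes the mutants and controls did not overlap. All mutants lay above all controls in the 3 that rose (6.4% of all tested genes) and below in the 2 that fell (3.04%). Sgk1 and Wnk2 lost their calls with unequal variances (adjusted p = 0.123 and 0.0836). The kinases SPAK (Stk39) and OSR1 (Oxsr1) themselves did not pass the test, at -0.25 and 0.12.

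Carbonic anhydrases make the bicarbonate that Slc4 proteins carry. Of 18 genes for bicarbonate handling, 5 fell and 3 rose, and the falls were large in the membrane-bound Car14 (95.8 ± 43.0 in mutants, SD, n = 4, and 405 ± 36.1 in controls, SD, n = 9, a difference of -1.98, adjusted p = 2.52e-08) and in the cytosolic Car2 (127 ± 20.2 and 377 ± 151, -1.39, adjusted p = 1.27e-04). Car13, another cytosolic enzyme, differed by -0.67 (adjusted p = 0.00118), and Car4 and Ahcyl1, a regulator of NBCe1, fell as well. Car13 was not called with unequal variances (adjusted p = 0.138) or with arrays centred on fibroblast genes (-0.20, adjusted p = 0.105). The 3 that rose, Car11 (0.76, adjusted p = 4.52e-04), Car8 and Car10, are known as relatives of the enzymes that lack catalytic activity. Car11 was not called with unequal variances (adjusted p = 0.0785).

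Of 10 partners of the Slc9 exchangers, 2 fell and none rose with limma, while 0 had an unadjusted p under 0.05 as higher and 4 as lower. Slc9a3r2, a scaffold of NHE3, differed by -0.52 (adjusted p = 0.0274) and was not called when mutant 1, 2 or 3 or control 8 was left out (adjusted p = 0.0504, 0.0925, 0.125 and 0.0506). Nor was it called with arrays centred on reference genes (-0.24, adjusted p = 0.234) or fibroblast genes (-0.05, adjusted p = 0.735), with Xist as a covariate (adjusted p = 0.142), in the mice with the Y-linked pattern (adjusted p = 0.11) or with unequal variances (adjusted p = 0.17). Ezr, or ezrin, which ties such scaffolds to actin, differed by -0.46 (adjusted p = 0.0395), and its call held without control 3 or control 6 but was lost without any other single mouse (adjusted p from 0.05 to 0.189), and it was also lost under 8 other alternatives, among them centring on reference genes (-0.18, adjusted p = 0.394). Slc9a3r1 and Cib1 did not pass the test, at -0.46 and -0.36, but were called as falls under 8 and 7 alternatives, among them quantile normalization (adjusted p = 0.00275 and 1.76e-04). Of 10 measured genes that anchor or accompany aquaporin-4, 1 rose (10%), near the 8.58% of all tested genes. That was Hepacam, a glial adhesion protein, with a difference of 0.63 (adjusted p = 0.0294) that was not called when mutant 2, 3 or 4 or control 5 or 8 was left out (adjusted p = 0.0552, 0.0726, 0.13, 0.0501 and 0.0536), and under 5 other alternatives, among them quantile normalization (0.50, adjusted p = 0.0933). Dtna, Dmd and Dtnb, all of the dystrophin complex, did not pass it, at 0.49, 0.39 and 0.21. They were called as rises under 10, 6 and 2 alternatives, for Dtna with array weights (0.67, adjusted p = 0.0013), quantile normalization (0.53, adjusted p = 0.00123) and without the 4 dimmest arrays (0.65, adjusted p = 0.00501) among others.

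**Figure D4:**
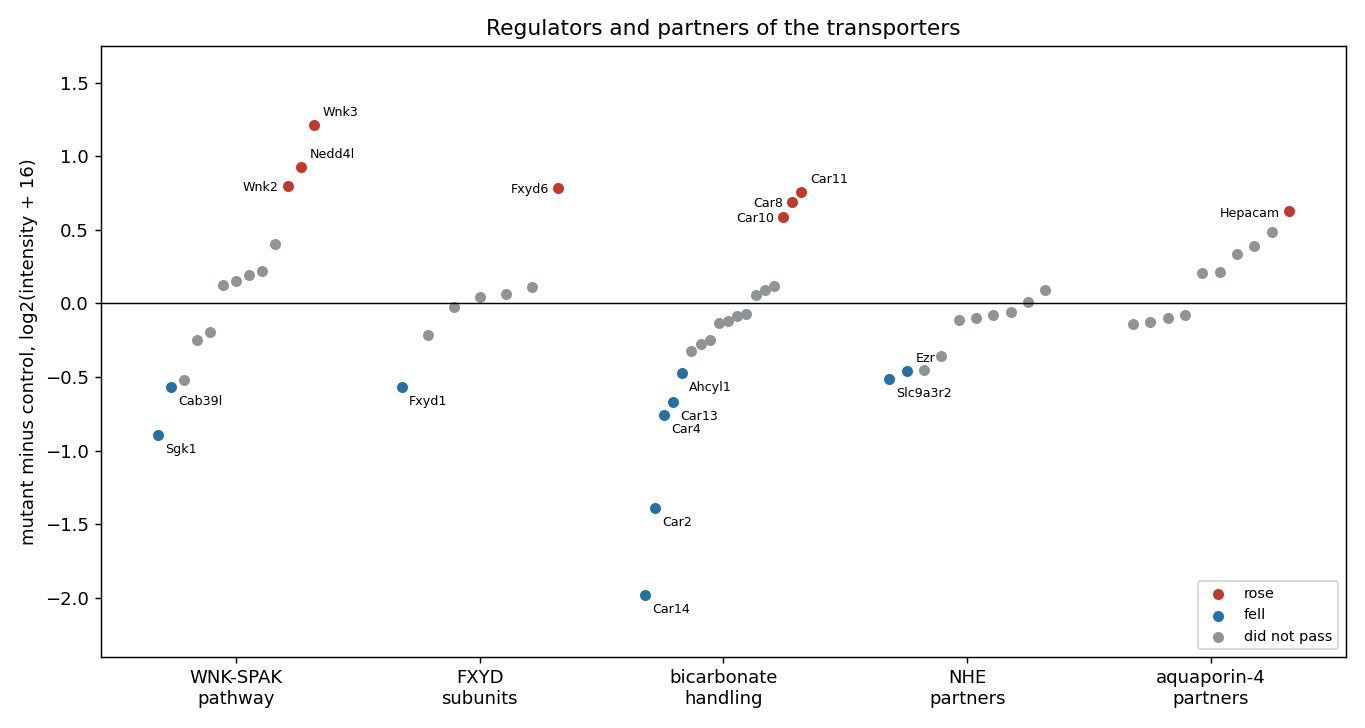
Difference, mutants minus controls on the log2(intensity + 16) scale (vertical axis), of each gene in 5 lists of regulators and partners, with the genes that rose or fell named. Wnk3 is highest at 1.21 and Car14 lowest at -1.98, and both directions occur in the WNK-SPAK, FXYD and bicarbonate lists.

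Markers of other cell types moved in these samples as well, and their part in the changes of the members was not tested. All 18 pan-neuronal markers rose, against 8.58% of all tested genes, with a median difference of 3.01. Their summed intensities lay between 17820 and 21950 (mutants) and between 1819 and 5216 (controls), with none at 0. This movement ran beside the rises of Slc12a5 and Slc4a8, whose products are known from neurons. Slc4a10, also known from neurons as well as from the choroid plexus, went the other way and fell by 0.76. Within the controls, Slc12a5 and Slc4a8 were both high in controls 4 and 9 and lowest in control 6. The mean log2 level of the pan-neuronal list was 7.03, 7.57 and 6.14 in controls 4, 9 and 6, and the array medians were 87.0, 89.0 and 44.1. Control 2 had a marker level of 7.20 and an array median of 74.0, and both genes lay below the control median there (36.8 for Slc12a5 and 59.9 for Slc4a8). Control 5 had a marker level of 6.60 and an array median of 82.2, and both genes were higher there (48.0 and 86.7) than in any control but 4 and 9. Controls 1, 3, 7 and 8 had marker levels of 6.17, 6.45, 6.85 and 6.67 and array medians of 52.9, 51.8, 65.3 and 73.8. In them Slc12a5 was at 27.3, 31.7, 37.9 and 39.1, and Slc4a8 at 47.9, 51.4, 69.3 and 65.2. What the levels of both genes followed within the controls was not tested.

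Beside the falls, 7 of 12 endothelial markers fell and none rose, where 6.31% of all tested genes fell and 8.58% rose. The 5 falls and 2 rises among the 15 fibroblast markers were given above. The endothelial sums lay between 6309 and 8900 (mutants) and between 8896 and 18790 (controls). Of 13 astrocyte markers 4 fell (Gja1, Gjb6, Slc1a3 and S1pr1) and 1 rose (Hepacam), with sums of 11360 to 17750 and 15300 to 19390. By sign 7 were higher and 6 lower, with a median difference of 0.05. Among 9 choroid plexus markers 3 fell (Kcnj13, Igfbp2 and Kl) and 1 rose (Clic6), with sums of 2596 to 5798 and 5160 to 7042. Igfbp2 alone had means of 2392 (mutants) and 4392 (controls). Ttr, Folr1, Otx2, Kcne2 and Sostdc1 did not pass the test. Ttr ran from 55.3 to 2840 in the mutants and from 71.2 to 168 in the controls. None of 10 mural, 8 erythroid or 10 muscle markers passed the test with limma, and at an unadjusted p under 0.05 only 1 mural marker was higher and 1 lower. Of 6 epithelial markers 1 fell. Of 9 oligodendrocyte markers 2 rose and 1 fell.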

How the data were processed

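RNA of the cerebral meninges of each pup was hybridised to 1 Affymetrix Mouse Gene 1.0 ST array. Per the labels and methods, the authors summarised the probes with PLIER, and the deposited values are linear intensities of 35557 probe sets. The PLIER version, background step and scaling are not given in the sources used here. Precision is limited by how many arrays there are.

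Probe sets were named through the platform's table (21789 with 1 symbol, 1621 with several, 12147 not listed there), and 21698 matched the annotation. Of 999 genes with several such probe sets the brightest was used. Values were taken as log2 of the deposited intensity + 16 and fitted with lmFit and eBayes of limma 3.58.1 (R 4.3.3, two-sided tests), and p-values were adjusted over 19938 genes by the Benjamini-Hochberg method. Differences between related genes were tested over all 715 splits of the mice with an exact permutation test. Python 3.11.15 and matplotlib 3.10.9 were used for tables and plots. The fit was tested on simulated data.

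The members and lists were chosen with earlier results of these data known. Named with values are all called members, the other members brighter than the median gene, Pdgfc, Pdgfra and up to 4 genes of each regulator list with the smallest adjusted p. Slc9a7, Slc9a4, Atp1b4, Stk39 and Oxsr1 were added after their values were seen. The alternatives were the methods' test, unequal variances, quantile normalization, array weights, robust variances with an intensity trend, centring (array medians, reference genes or fibroblast genes), other constants (1 and 32), the mean of probe sets, filters on dim genes (25% or 50%), Xist as a covariate, mice with the Y-linked pattern, a block for the replicate number, and runs without the 4 dimmest arrays or without each single mouse. The fit of each probe set on its own was added after seeing the data. Some genes of these families are not reported here.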

Additional observations from a re-analysis of the deposited data

Results flagged for a closer look

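In the 80 sets of values of the 40 members (each member in the mutants and in the controls), the most extreme mouse was compared with its group, and 2 stood apart, where chance gives about 1 in 20. Atp1a4 was at 295.29 in control 1, the lowest of the 9 controls, with the next at 512.38. Slc9a2 was at 104.94 in control 5, the highest of the 9 controls, with the next at 79.21.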

How the results depend on the processing

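Of the 12 calls, 9 were kept whichever mouse was left out, with 2 to 3 rises and 7 to 9 falls, and no call was gained. Slc4a8, Slc4a2 and Atp1a4 lost theirs without single mice, as given with each gene. Slc9a2, Slc9a9 and Atp1b2 kept theirs under all other alternatives too, and Atp1b3, Slc12a7, Slc4a10 and Slc4a4 lost theirs only with unequal variances. Of the 40 members, 3 rose and 9 fell as reported. Unequal variances gave 1 rise and 3 falls, quantile normalization 5 rises, centring on reference genes 7 and on fibroblast genes 14, leaving out the dimmest 50% of genes 1, the Xist level as a covariate 0 and the mice with the Y-linked pattern 1. With centring on fibroblast genes Slc12a4 turned to 0.39 and Ezr to 0.0076. The median of all genes moved from 0.00 to 0.28 with reference genes and 0.47 with fibroblast genes, and that of the members from -0.06 to 0.23 and 0.41, so both moved alike. Over all genes, 1710 rose and 1258 fell, against 1139 and 400 with unequal variances, 2667 and 3610 with quantile normalization, 1808 and 2862 centred on array medians, 5094 and 572 on the reference list, 11551 and 367 on the fibroblast list, 2033 and 2023 with array weights, 1352 and 1433 without the dimmest 50%, 1144 and 605 with Xist, and 1190 and 644 in the mice with the Y-linked pattern. The pair Slc12a5 to Slc12a2 differed by 0.75 (adjusted p = 0.0857) in those mice, 0.54 (0.0595) without the 4 dimmest arrays and 0.58 to 0.84 with 1 mouse left out. The pair Atp1b1 to Atp1b2 differed by 1.22 (0.0857) in those mice and 1.23 to 1.48 with 1 left out, and Slc4a10 to Slc4a4 by 0.05 to 0.23. The causes were not tested. The methods' test at an unadjusted p and a fold above 2 gave 0 members higher and 1 lower, and after Benjamini-Hochberg adjustment 2 rises and 8 falls. With the replicate number as a block, 2 members rose and 7 fell (1284 and 545 of all genes). Deviations of mice that share a number correlated at -0.34, 0.16, 0.31 and -0.09, with no reference values beside them. The labels do not say whether the numbers pair mice, and these correlations cannot decide it. 1 of 4 planned pairs was not run. The array number, 4 and 9, limits what can be seen in dim members.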
